A study of Homo sapiens with 77 samples.

Results

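The sgRNAs described here are directed against the protein arginine methyltransferases, and they are all the sgRNAs of a pooled CRISPR knockout library whose target gene symbol starts with PRMT or is CARM1. They number 32 of the 2306 sgRNAs counted, and they cover 8 of the 564 targeted genes with 4 sgRNAs each. The library is aimed at regulators of chromatin and was screened in KARPAS422, an EZH2-mutant line of diffuse large B cell lymphoma, and in K562, a chronic myeloid leukemia line with wildtype EZH2, both made to express Cas9. In each line sgRNAs were counted in 1 library of day 0 and 1 library of day 14, with no drug, and the screen asks which chromatin regulators each line needs to keep growing. As a second readout of the target genes, RNA-seq of KARPAS422 was used, and levels with DMSO were also taken from DB (EZH2 mutant), Farage (EZH2 wildtype) and SUDHL5, likewise lines of diffuse large B cell lymphoma. In 1 experiment the cells had received DMSO or MI-503, a menin inhibitor. In the other they had received DMSO, EPZ-6438 (tazemetostat, an EZH2 inhibitor), VTP50469 (a menin inhibitor) or EPZ-6438 and VTP50469 together. The paper gives another dose and length of exposure for MI-503 than for VTP50469, so counts of calls are not comparable between these menin inhibitors. Each RNA-seq group held 2 libraries, and nothing in the labels says that these came from separate cultures, so that p-values measure only the spread between these libraries. The lines were not authenticated, and K562 had no RNA-seq here.

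Protein arginine methyltransferases move methyl groups from S-adenosylmethionine to the nitrogens at the end of an arginine side chain, and all of them can leave a monomethylarginine. Type I enzymes go on to asymmetric dimethylarginine, the type II enzyme PRMT5 goes on to symmetric dimethylarginine, and the type III enzyme PRMT7 stops at the monomethyl form. Their substrates include the histone tails of H3 and H4 and many RNA-binding proteins, among them the Sm proteins of the spliceosome. The type II enzyme PRMT9 had no sgRNA among those counted. The letters of the sgRNAs and their target positions were not used here, so the sgRNAs are called by their names in the count tables.

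The screened libraries held between 18275683 and 25031212 counts. The log2 change of an sgRNA is its count on day 14 over its count on day 0, after scaling to equal totals and adding a pseudocount of 1, minus the median of the same value over the sgRNAs of the gene named Control. A value of 0 is therefore the behaviour of the median control sgRNA, and -1 marks the loss of 1 doubling against it. A gene is scored by the median of its sgRNAs. Of the 50 control sgRNAs, 48 reached the minimum of 30 counts on day 0 in each line. In KARPAS422 their SD was 0.64 and the lowest was -2.58, and in K562 the SD was 1.30 and the lowest was -7.15. There is 1 library per line and day, so no test of a change is possible and the sgRNAs of a gene are not replicates. The 95% intervals given for single sgRNAs are exact and cover counting error only, and so do the limits for sgRNAs at a count of 0.

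Of the 32 sgRNAs, 31 reached the minimum in each line. The remaining sgRNA, s_1586 against PRMT3, went from 27 counts to 0 in KARPAS422 and from 17 to 0 in K562, and was left out of the scores. In KARPAS422 17 of the 31 fell below -1, with 36.9 percent of all sgRNAs against genes doing so, and 11 lay below the lowest control sgRNA. Their median log2 change was -1.67, against -0.70 over all sgRNAs directed at genes. In K562 6 of the 31 fell below -1, with 11.9 percent of all sgRNAs doing so, and none lay below the lowest control, a single sgRNA at -7.15. The 5th percentile of the controls was -1.31 in KARPAS422 and -0.89 in K562, and 16 and 6 members lay below it. In K562 the median over the 31 members was -0.32, against -0.22 over all sgRNAs directed at genes. At the level of genes, 4 of 8 scored below -1 in KARPAS422 (32.6 percent of all genes did) and 2 of 8 in K562 (4.08 percent).

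By type of methylation, 9 of 23 type I sgRNAs fell below -1 in KARPAS422 and 4 of 23 in K562. For type II these counts were 4 of 4 and 1 of 4, and for type III 4 of 4 and 1 of 4. Over all sgRNAs against genes the shares below -1 were 36.9 percent in KARPAS422 and 11.9 percent in K562. In KARPAS422 the type I genes were spread widely, with scores from -4.73 to 0.09. All 12 sgRNAs against PRMT1, CARM1 and PRMT5, which make asymmetric, asymmetric and symmetric dimethylarginine, were depleted. The least depleted was at -2.21, and the most depleted was at 0 counts on day 14. The 4 sgRNAs against PRMT7 lay between -1.82 and -1.28. Of the 15 measured sgRNAs against the other type I genes PRMT2, PRMT3, PRMT6 and PRMT8, 14 stayed above -1 and 1 did not. These sets of genes were chosen after their values were seen.

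PRMT1, at chr19:49675786-49689029 on the plus strand of hg38, encodes the enzyme known for most asymmetric arginine dimethylation in cells. In KARPAS422 its sgRNA s_1575 went from 9114 counts to 483, s_1576 from 12613 to 830, s_1577 from 18015 to 609 and s_1578 from 17717 to 1330. All of them were lower on day 14, by 29.6-, 23.8-, 46.4- and 20.9-fold against the controls. Their log2 changes were -4.89, -4.58, -5.54 and -4.39, and the widest counting interval was that of s_1575, from -5.02 to -4.76. The score of -4.73 is a 26.6-fold loss against the controls and ranked PRMT1 as number 7 from the bottom among 564 genes. As a share of the library, PRMT1 went from 0.278% (95% Wilson interval 0.276 to 0.281) to 0.0171% (0.0165 to 0.0177).

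In K562 the same sgRNAs went from 9338 counts to 4732, from 17771 to 8854, from 20794 to 7185 and from 22904 to 5724. Their log2 changes were -0.71, -0.74, -1.26 and -1.73, with no overlap with those in KARPAS422. The score of -1.001 was still number 23 from the bottom in that line. It lies at the cut of -1 and was -0.78 when all sgRNAs served as the centre.

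CARM1, also called PRMT4, is a type I enzyme known as a coactivator that methylates histone H3 and lies at chr19:10871553-10923075 on the plus strand. In KARPAS422 s_269 went from 3086 counts to 454, s_270 from 15119 to 1054, s_271 from 17194 to 967 and s_272 from 7127 to 631. The log2 changes were -3.41, -4.49, -4.80 and -4.15, all below every control sgRNA. The score of -4.32 (20.0-fold lower) ranked number 12 from the bottom. In K562 the counts of s_269 went from 2926 to 3256, of s_270 from 20122 to 9438, of s_271 from 19699 to 22248 and of s_272 from 10877 to 7337. There 2 of the sgRNAs were above 0 and 2 below, between -0.82 and 0.44, and the score was 0.06, with its sign changing under 2 of 9 alternative settings.

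PRMT2, PRMT3, PRMT6 and PRMT8 complete the type I members. PRMT2, at chr21:46635595-46665124 on the plus strand and known for weak methyltransferase activity, scored -0.51 in KARPAS422 (-0.80 to 0.81) and -0.07 in K562 (-0.33 to 0.26). Its sgRNA s_1582, with 506 counts on day 0, was the one that rose most of all members in KARPAS422, to 1393 counts. PRMT6, at chr1:107056674-107067636 on the plus strand and known to methylate histone H3, had the tightest sgRNAs of the 8 genes in K562 (SD 0.18). It scored -0.26 in KARPAS422 (-0.46 to 0.02) and -0.18 in K562 (-0.32 to 0.06). For both genes in both lines the sign depended on the centre: with all sgRNAs or library totals in place of the controls, every one of these scores was above 0. In KARPAS422 the control sgRNAs themselves gained 0.77 on the log2 scale relative to library totals, and in K562 0.19.

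PRMT3, a cytosolic enzyme known to methylate a protein of the small ribosomal subunit, lies at chr11:20387558-20509338 on the plus strand. It is the member whose score was lower in K562 than in KARPAS422. In KARPAS422 s_1583 went from 7914 counts to 13258, s_1584 from 1034 to 2396 and s_1585 from 1355 to 1224, with log2 changes of 0.09, 0.56 and -0.80. In K562 the same sgRNAs went from 7362 to 9789, from 2201 to 848 and from 1793 to 395, with log2 changes of 0.68, -1.11 and -1.91. The K562 score of -1.11 thus rests on 2 of 3 sgRNAs, while the third went up. It was -0.21 without the lowest sgRNA and number 19 from the bottom with it. The KARPAS422 score of 0.09 changed sign under 3 of 9 alternatives.

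PRMT8, at chr12:3381349-3593973 on the plus strand, is known as a brain enzyme anchored at the plasma membrane, and its RNA was close to 0 in KARPAS422. It scored -0.28 in KARPAS422, with a sign that changed under 2 of 9 alternatives, and -0.03 in K562, with a sign that changed under 5. In KARPAS422 its sgRNAs lay between -1.92 and 0.13, and the lowest was s_1602, which had 308 counts on day 0 and 127 on day 14. In K562 s_1601 stood far from the rest: it went from 1064 counts to 8658, a log2 change of 3.29 (95% counting interval 3.20 to 3.39) and above all 48 control sgRNAs. Its abundance on day 0 was 391 CPM, that is counts scaled to a common library total, in KARPAS422 but 42.5 in K562, a log2 ratio of -3.20. For the other 31 members that ratio of K562 over KARPAS422 on day 0 lay between -0.95 and 0.81. The other sgRNAs against PRMT8 in K562 had log2 changes of 0.54, -0.60 and -0.69.

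PRMT5, the type II member, is known to form the methylosome with WDR77 and to methylate Sm proteins and histones, and lies at chr14:22920525-22929408 on the minus strand. In KARPAS422 s_1587 went from 7193 counts to 500, s_1588 from 9249 to 552, s_1589 from 239 to 0 and s_1590 from 16445 to 5582. The first pair had log2 changes of -4.49 and -4.72. The sgRNA s_1589 was counted at 0 on day 14, and its 95% counting interval ended at a log2 change of -6.66. With 3 counts in place of 0, and no error on day 0, it was 125-fold lower. The sgRNA s_1590 was the least depleted, at -2.21 (95% counting interval -2.25 to -2.17), and 1 control sgRNA lay below it. The PRMT5 score of -4.61 (24.3-fold lower) ranked number 9 from the bottom. In K562 the counts went from 5762 to 3539, from 6903 to 2204, from 331 to 233 and from 17723 to 9223. Those log2 changes were -0.43, -1.38, -0.24 and -0.67, all below 0 and all above those in KARPAS422, and the score was -0.55, number 116 from the bottom.

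PRMT7, the type III member, lies at chr16:68310951-68360852 on the plus strand. In KARPAS422 s_1595 went from 13268 counts to 6556, s_1596 from 50 to 32, s_1597 from 14424 to 6426 and s_1598 from 10740 to 5129. The log2 changes were -1.67, -1.28, -1.82 and -1.72, so that its sgRNAs differed by less than those of the other 7 member genes in that line (SD 0.23). The score of -1.69 (3.23-fold lower) was number 110 from the bottom, and -0.92 with library totals alone. In K562 s_1595, s_1597 and s_1598 had log2 changes of -0.36, 0.15 and 0.07. The sparse s_1596 went from 40 counts to 0 in K562, and its counting interval ended at a log2 change of -3.10. With 3 counts in place of 0, and no error on day 0, s_1596 was 11.1-fold lower. The K562 score was -0.14, and its sign changed under 4 of 9 alternatives.

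Taking each sgRNA's log2 change in KARPAS422 minus that in K562, 17 of 31 members were more than 1 lower in KARPAS422, with 32.1 percent of all sgRNAs against genes doing so. The median difference was -1.31 over the members, -0.59 over all sgRNAs against genes and 0.02 over 47 control sgRNAs (SD 1.19). By gene the median difference was -4.01 for PRMT1, -3.84 for CARM1 and -3.70 for PRMT5, and each of their sgRNAs was lower in KARPAS422. It was -1.55 for PRMT7 and -1.07 for PRMT8, where some sgRNAs went the other way. The PRMT8 value and the count of 17 include s_1601, at -3.16, from 0.13 in KARPAS422 and 3.29 in K562. That sgRNA had 42.5 CPM on day 0 in K562 against 391 in KARPAS422. PRMT2, PRMT6 and PRMT3 had median differences of -0.30, -0.10 and 1.11. With 1 library per line and day the difference between lines was not tested. Genes of other kinds also changed less in K562: of 8 genes that dividing cells need in general, 8 scored below -1 in KARPAS422 (median -3.71) and 1 in K562 (median -0.54). The part of this in the differences of the PRMT genes was not tested.

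The library also targets 11 genes listed as cofactors of the enzymes, readers of methylarginine or proposed erasers. In KARPAS422 5 of them scored below -1, beside 32.6 percent of all genes, with a list median of -0.71 and a median of -0.69 over all genes. In K562 3 of them did, beside 4.08 percent of all genes, with a list median of -0.47. WDR77, the partner of PRMT5, scored -3.14 in KARPAS422 and -0.75 in K562. SMN1 and SMNDC1, whose Tudor domains read methylarginine on splicing proteins, scored -2.64 and -2.82 in KARPAS422 against -1.36 and -0.29 in K562. SMN1 has the near-identical copy SMN2, so its sgRNAs may cut both. JMJD6, a proposed arginine demethylase, scored -1.65 and -1.08, and the Tudor protein SND1 -1.12 and -0.23. The reader TDRD3 scored -0.05 in KARPAS422 and -0.92 in K562. The 5 peptidylarginine deiminases PADI1, PADI2, PADI3, PADI4 and PADI6, which turn arginine into citrulline, lay between -0.71 and -0.39 in KARPAS422 and between -1.33 and 0.15 in K562. The lowest in K562 was PADI2, which scored -0.70 in KARPAS422. As a family of comparison, of 16 NSD, SETD and SMYD lysine methyltransferases 3 scored below -1 in KARPAS422 (median -0.67) and 0 in K562 (median 0.11), beside the same shares of all genes.

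In RNA-seq of KARPAS422 with DMSO, the 3 genes with the lowest screen scores were also those with the highest levels per exon length. In the MI-503 experiment PRMT5 had 74.3 ± 0.09 CPM per kb (SD, n = 2), PRMT1 66.7 ± 0.17 and CARM1 29.8 ± 1.09. PRMT3 and PRMT6 followed with 10.5 ± 0.65 and 10.0 ± 0.11, which did not differ beyond their spread. PRMT2 had 6.33 ± 0.01, PRMT7 2.96 ± 0.17 and PRMT8 0.027 ± 0.006. Exon lengths are those of GENCODE on hg38, where overlapping exons of all transcripts are joined. PRMT7 has the longest joined length of the members, 13884 bases. Without division by length it had 41.0 CPM, beside 43.5 for PRMT6 and 48.1 for PRMT2. PRMT5 overlaps the antisense gene PRMT5-AS1, and CARM1 overlaps YIPF2 on the other strand. PRMT1, PRMT2, PRMT7 and PRMT8 also overlap genes on the other strand. Since the counting is not stated to use strand, reads of such pairs cannot be told apart. Of the 4 lines of that table, SUDHL5 had the lowest PRMT5 level with 64.1 ± 2.25 CPM, Farage had 96.9 ± 2.39, DB 103 ± 0.20 and KARPAS422 243 ± 0.30. Each step was larger than the spread between libraries. PRMT1 also was lowest in SUDHL5, with 189 ± 1.75, and lay at 320 ± 0.79 in KARPAS422, 329 ± 11.0 in DB and 339 ± 3.56 in Farage, where the libraries of DB and Farage overlapped. PRMT8 was at 0 counts in DB and Farage. In all KARPAS422 libraries the B cell markers MS4A1, CD79A, CD79B, PAX5 and CD22 were present, each at 279.8 CPM or more. The 2 RNA-seq tables were not set against each other, since some genes differ widely between them in the same line: SMN1 and MTAP are at or near 0 in KARPAS422 in the drug combination table and well above it in the other.

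MI-503 lowered 5 of the 8 target genes and raised 1, by small amounts. In such bulk RNA fewer cells that express a gene and less of its RNA per cell cannot be told apart. In that comparison 26.3 percent of all genes tested were called lower and 25.5 percent higher (51.8 percent either way), at an adjusted p under 0.1. PRMT7 went from 41.7 and 45.2 CPM in DMSO to 33.3 and 35.5 in MI-503, a log2 fold change of -0.34 ± 0.06 (SE, edgeR adjusted p = 0.00060). PRMT6 went from 46.4 and 45.7 to 37.7 and 36.5, a change of -0.31 ± 0.05 (edgeR adjusted p = 0.00034). CARM1 went from 136 and 143 to 121 and 119, a change of -0.22 ± 0.04 (edgeR adjusted p = 0.00059). In these genes the libraries of the groups did not overlap. Neither did they in PRMT1, PRMT2, PRMT5 and PRMT8, of which PRMT8 did not pass the test. The share of all genes without overlap was not counted, so this is not a trait of the members. PRMT2 rose, from 51.1 and 50.9 to 63.9 and 59.5, by 0.28 ± 0.05 (edgeR adjusted p = 0.00055). PRMT5 and PRMT1 had smaller falls of -0.09 ± 0.03 and -0.07 ± 0.03 (edgeR adjusted p = 0.024 and 0.063). The call of PRMT1 was lost without any single library of the 4, with values from -0.08 to -0.06. The call of PRMT5 was lost without either MI-503 library, at -0.08 and -0.10. Both calls were also lost with library totals alone, at -0.03 for PRMT1 and -0.06 for PRMT5. PRMT3 (63.7 and 58.3 in DMSO, 65.5 and 59.4 in MI-503) and PRMT8 (under 1 CPM throughout) did not pass the test. The median log2 fold change was -0.08 over the 8 genes and 0.01 over all genes.

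EPZ-6438 lowered the 4 genes that scored below -1 in the KARPAS422 screen and raised none of the 8. Of all genes tested 10.0 percent were called lower and 8.27 percent higher (18.3 percent either way). PRMT5 went from 441 and 450 CPM in DMSO to 320 and 298, a log2 fold change of -0.53 ± 0.09 (SE, edgeR adjusted p = 0.022). CARM1 went from 162 and 201 to 118 and 117, a change of -0.63 ± 0.13 (edgeR adjusted p = 0.030). PRMT1 went from 553 and 665 to 431 and 410, a change of -0.54 ± 0.11 (edgeR adjusted p = 0.033). In all of these both treated libraries were below both DMSO libraries, as they also were in PRMT7 and in PRMT6, which did not pass. For how many of all genes the libraries lay apart was not counted. PRMT7 went from 86.9 and 96.3 to 72.04 and 61.5, by -0.46 ± 0.12 (edgeR adjusted p = 0.053). PRMT2, PRMT3, PRMT6 and PRMT8 had values of 0.08, -0.18, -0.20 and -0.26 and did not pass. The count of 4 became 0 without EPZ-6438 replicate 2, where 0 genes of the whole table were called, and 1 without DMSO replicate 2, where 350 genes were called higher and 427 lower. Without EPZ-6438 replicate 2 the values of CARM1, PRMT1, PRMT5 and PRMT7 were -0.61, -0.49, -0.47 and -0.34. Why the calls were lost was not tested. PRMT7 was also lost without DMSO replicate 1. With library totals alone 2 members were called, and the calls over all genes were 1584 higher and 797 lower in place of 1093 and 1326.

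VTP50469 alone gave 0 calls among the 8 genes by edgeR's quasi-likelihood test, with 0 at an unadjusted p under 0.05 and 0 by DESeq2. Of all genes 3.18 percent were called higher and 0.197 percent lower (3.38 percent either way), that is 421 and 26 genes, which became 572 and 194 with library totals alone. PRMT5, the gene with the smallest unadjusted p, stood at 410 and 394 CPM against 441 and 450 in DMSO, a log2 fold change of -0.15 ± 0.09 (SE, edgeR adjusted p = 0.61). PRMT1 had 679 and 637 against 553 and 665, and CARM1 175 and 166 against 162 and 201, and their groups overlapped.

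With both drugs 6 of the 8 genes fell and 1 rose, while 25.2 percent of all genes were called lower and 23.5 percent higher (48.7 percent either way). With library totals alone the calls over all genes were 4399 higher and 2396 lower in place of 3108 and 3333, and 6 members were called. The median was -0.72 over the 8 genes and 0.10 over all genes. PRMT5 had 216 and 196 CPM against 441 and 450 in DMSO, a log2 fold change of -1.11 ± 0.09 (SE, edgeR adjusted p = 0.00048). CARM1 had 91.7 and 97.3 against 162 and 201, a change of -0.94 ± 0.13 (edgeR adjusted p = 0.0021). PRMT1 had 314 and 338 against 553 and 665, a change of -0.90 ± 0.11 (edgeR adjusted p = 0.0015). These falls were -0.53, -0.63 and -0.54 with EPZ-6438 alone, measured against the same DMSO libraries, and the difference between the treatments was not tested. PRMT3, which did not pass with either drug alone, had 84.3 and 57.9 against 151 and 116, a change of -0.90 ± 0.20 (edgeR adjusted p = 0.013). PRMT6 had 43.7 and 36.6 against 58.2 and 58.5, a change of -0.53 ± 0.12 (edgeR adjusted p = 0.014). PRMT7 changed by -0.40 ± 0.12 (edgeR adjusted p = 0.034), and its call was lost without DMSO replicate 2, with library totals alone and when only these groups were fitted. PRMT2 rose from 84.8 and 86.1 to 120 and 98.5, by 0.36 ± 0.12 (edgeR adjusted p = 0.049). That call was lost without either DMSO library, when only these groups were fitted, and without replicate 1 of both drugs, where the value was 0.03.

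PRMT8 with both drugs rested on 1 library. It had 0.507 CPM in replicate 1 and 16.9 in replicate 2, against 0.423 and 2.36 in DMSO, with a log2 fold change of 2.62 ± 1.51 (SE, edgeR adjusted p = 0.20). Without replicate 2 of both drugs the value was -1.48. The same library held 5.07 CPM of PADI1, 4.32 of PADI3, 5.47 of PADI4 and 2.88 of PADI6, which were at 0.226 or less in replicate 1 and at 0.900 or less in DMSO. Replicate 2 was above replicate 1 in the other groups too, by less: PRMT8 had 0.672 and 1.65 with EPZ-6438 and 0.588 and 1.42 with VTP50469. PADI1, PADI4 and PADI6 were likewise higher in replicate 2 of every group, and PADI3 in every group but VTP50469. What sets these libraries apart was not tested. PADI2 was higher in both libraries, at 3.50 and 8.87 against 0.761 and 1.46, by 2.46 ± 0.63 (edgeR adjusted p = 0.022).

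Of the 19 genes listed as partners, readers, erasers or suppliers of methyl groups, 14 were tested with both drugs, of which 7 fell and 3 rose, with 25.2 and 23.5 percent of all genes doing so. WDR77, RIOK1, CLNS1A and COPRS, all known to bind PRMT5 or its complex, changed by -0.77, -0.98, -0.43 and -0.37. MAT2A, which makes S-adenosylmethionine, and AHCY, which clears its product, changed by -0.91 and -0.99. JMJD6 changed by -0.87. The genes that rose were PADI2, TDRD3 by 0.37 and BTG1, known as a binding partner of PRMT1, by 1.22. With EPZ-6438 alone 3 of 14 fell (JMJD6, AHCY and COPRS) and 2 rose (BTG1 and TDRD3), beside 10.0 and 8.27 percent of all genes, and with VTP50469 alone 0 of 14 passed in either direction by edgeR's test, with 0 at an unadjusted p under 0.05 and 0 by DESeq2. With MI-503 6 of 15 fell and 3 rose, beside 26.3 and 25.5 percent of all genes. Of the 15, 8 had an unadjusted p under 0.05 by edgeR's test, and DESeq2 called 6. The largest change called by edgeR was that of SMN1, by 0.58. Reads of its near-identical copy SMN2 may be counted with it. SMN1 was at or near 0 in KARPAS422 in the drug combination experiment.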

How the data were processed

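The members, the gene lists and the tests were chosen with earlier results of these data known. For the screen, the authors trimmed reads with cutadapt, and MAGeCK gave the raw counts per sgRNA that were deposited. For RNA-seq, reads were mapped by the authors to hg38 (HISAT2 2.1.0) and featureCounts 1.6.1 gave the deposited raw counts per gene. CASAVA 1.7 and Picard 2.23.1 also stand in the submitters' processing notes, without a role. The sources used here give neither the strand setting nor the annotation of the counting. Groups follow line, day, treatment and replicate number of the labels. The CUT&Tag samples were not used here. Counts per sgRNA were handled in Python (3.11.15) with pandas (2.3.3) and scipy (1.17.1).

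For RNA-seq, totals per KARPAS422 library ran from 25106810 to 54883332 counts in the MI-503 experiment and from 8956156 to 21837235 in the drug combination experiment. Genes kept by filterByExpr (14495 and 13223) entered edgeR (4.0.16, R 4.3.3) with TMM factors and its two-sided quasi-likelihood test, with Benjamini-Hochberg adjustment over all genes and calls at an adjusted p under 0.1. The 8 KARPAS422 libraries of the drug combination experiment shared 1 fit. CPM are TMM-scaled within the libraries of the fit, or, for levels by line and per kb, within the whole table. No pair of replicate libraries agreed within sampling noise (chi-square per gene 1.83 to 51.5). All members are named, and of the other lists only the partners and the cell type markers. Scripts were tested on simulated data. Alternatives were DESeq2 (1.42.0), RLE size factors, library totals, no filter, a replicate block and leaving out each library. For the screen they were the centre, the pseudocount (5), the minimum on day 0 (none, 300), the mean, and leaving out the lowest or highest sgRNA. Setting sgRNAs at 0 to 3 counts was added after seeing the data. Of the B cell markers, 1 gene is not reported here.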

Additional observations from a re-analysis of the deposited data

Results flagged for a closer look

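CARM1 was flagged because its sgRNAs moved apart between the lines: the score was -4.32 in KARPAS422 and 0.06 in K562. PRMT3 was flagged for the opposite pattern, with a score of 0.093 in KARPAS422 and -1.11 in K562. Each line has 1 library per day, so the differences were not tested. The K562 score of CARM1 changed sign under 2 of 9 alternatives and the KARPAS422 score of PRMT3 under 3 of 9.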

How the results depend on the processing

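The median over the PRMT sgRNAs in KARPAS422 was -0.90 with library totals alone and -0.98 when every sgRNA served as the centre, against -1.67. The 2 PRMT genes below -1 in K562 became 0 with either of these, 1 with no minimum on day 0 and 0 without the lowest sgRNA of each gene. The scores of PRMT1, CARM1 and PRMT5 in KARPAS422 stayed at -3.55 or lower under all 9 alternatives. The PRMT genes called with EPZ-6438 went from 4 to 2 with library totals alone. Among the alternatives that keep every library, the other 58 counts and medians stayed within 1.5 times of the reported count or within the spread. Leaving out 1 library gave 0 to 4 calls with EPZ-6438, 4 to 5 with MI-503, 0 with VTP50469 and 5 to 7 with both drugs. Among values that did not pass the test, PRMT7 with VTP50469 was -0.031 with no filter, against 0.011. Leaving out 1 library turned the sign of PRMT3 with MI-503 (-0.034 to 0.11), of PRMT2 (-0.0071 to 0.054) and PRMT8 (-1.06 to 1.35) with EPZ-6438, of PRMT7 (-0.036 to 0.13), CARM1 (-0.21 to 0.045) and PRMT8 (-1.21 to 1.19) with VTP50469, and of PRMT8 with both drugs (-1.48 to 4.33). The causes were not tested. Same-numbered libraries deviated together in the drug combination experiment (correlations 0.65 to 0.86 over 6 pairs of groups) but not in the MI-503 experiment (-0.02). The labels do not say what a number shares, and 2 numbers per group are too few to settle the pairing. With the replicate number as a block, 8 genes were called with both drugs in place of 7, the added gene being PRMT8 (2.14, edgeR adjusted p = 0.041), and no other call of the 8 genes changed. The screen has 1 library per line and day, which limits it to values with counting intervals, and s_1586 and s_1596, with at most 50 counts on day 0, rest on the fewest counts.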
